A study of Mus musculus with 4 samples.

Results

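The 10 genes described here mark the cells that line blood and lymphatic vessels: Cldn5, Pecam1, Cdh5, Kdr, Tek, Tie1, Emcn, Lyve1, Prox1 and Flt4. They were taken by symbol from a table of 17958 genes measured by RNA sequencing of mouse epidermis, and all 10 were present and among the 14459 genes that passed the filter on low counts. There were 2 libraries labelled IL-36Ra-cKO, which their genotype field calls a knockdown of IL-36Ra, and 2 libraries labelled IL-36Rafl/fl, whose genotype field reads WT. IL-36Ra is the secreted antagonist that blocks the IL-36 receptor, and fl/fl mice carry floxed alleles of a gene to be deleted by Cre recombinase. No library was treated. The labels name no strain, age, sex, Cre driver or number of animals, so p-values measure only the spread between these libraries, which may be technical.

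Blood vessels are lined by endothelial cells, which hold together through VE-cadherin (Cdh5), PECAM-1 (Pecam1) and, in tight junctions, claudin-5 (Cldn5). Their growth and quiescence are set by the vascular endothelial growth factor (VEGF) receptors and by the angiopoietin receptor Tie2, encoded by Tek, with its relative Tie1. Lymphatic endothelium is a separate lineage, specified by the transcription factor Prox1 and marked by the VEGF-C receptor VEGFR-3 (Flt4) and the hyaluronan receptor Lyve1. In skin, both kinds of vessel lie in the dermis and the fat below it, and the epidermis has none.

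The label of the samples is epidermal keratinocytes, and keratinocyte genes were high in all 4 libraries, with a sum of 25540 and 24970 TPM (transcripts scaled to a fixed library sum) over 10 markers in the cKO libraries and 27020 and 23760 TPM in the fl/fl libraries. Dermal fibroblast genes were read in all 4 libraries too, at 1102 to 2054 TPM in sum over 11 markers. Total counts, after rounding, ran from 14622782 to 16490593 per library. The library cKO replicate 2 stood apart, with 9 of 16 hair follicle markers at 0 counts and a summed skeletal muscle level of 2394 TPM, against 85.05 TPM in cKO replicate 1 and 168 and 202 TPM in the fl/fl libraries. Transcripts of 4 Y-linked genes summed to 124 and 154 TPM in the cKO libraries and to 0.98 and 1.23 TPM in the fl/fl libraries, so an apparent difference in sex went with the genotype label and the effects of both cannot be told apart. The targeted gene, listed as Il1f5, had 3258 and 2508 counts in the cKO libraries and 3743 and 3489 in the fl/fl libraries (adjusted p = 0.509, edgeR), and the groups overlapped on TMM-scaled counts. On TPM it was lower in both cKO libraries, at 171 and 135 TPM, against 234 and 179 TPM in the fl/fl libraries. The same separation on TPM held for 43.4% of all genes tested. Il1f5 was thus still read at a high level under the cKO label, and the libraries are called by their labels throughout.

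All 10 vessel genes were read in every library. Their summed level was 58.6 and 75.5 TPM in the cKO libraries and 49.7 and 61.6 TPM in the fl/fl libraries. They took 0.0131% and 0.0159% of the counts in the cKO libraries and 0.00955% and 0.0142% in the fl/fl libraries. Single genes had between 43 counts (Flt4 in fl/fl replicate 1) and 861 counts (Pecam1 in fl/fl replicate 2).

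By mean TPM over the 4 libraries, a scale that corrects for transcript length, Pecam1 came first at 17.2 TPM. Emcn followed at 11.3, Cldn5 at 10.3, Lyve1 at 5.92 and Cdh5 at 5.24 TPM. Tie1, Kdr and Tek lay close together at 3.36, 3.13 and 2.96 TPM, and Flt4 and Prox1 came last at 1.27 and 0.645 TPM. The ranges over the 4 libraries were separate only between Pecam1 and Emcn and between Tek and Flt4, and every other pair of neighbours in the order overlapped. The plot of TPM by library shows that the place of Cldn5 in the order depended on the library, above Pecam1 in cKO replicate 2, just below Emcn in cKO replicate 1 and below Cdh5 in both fl/fl libraries.

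**Figure D1:**
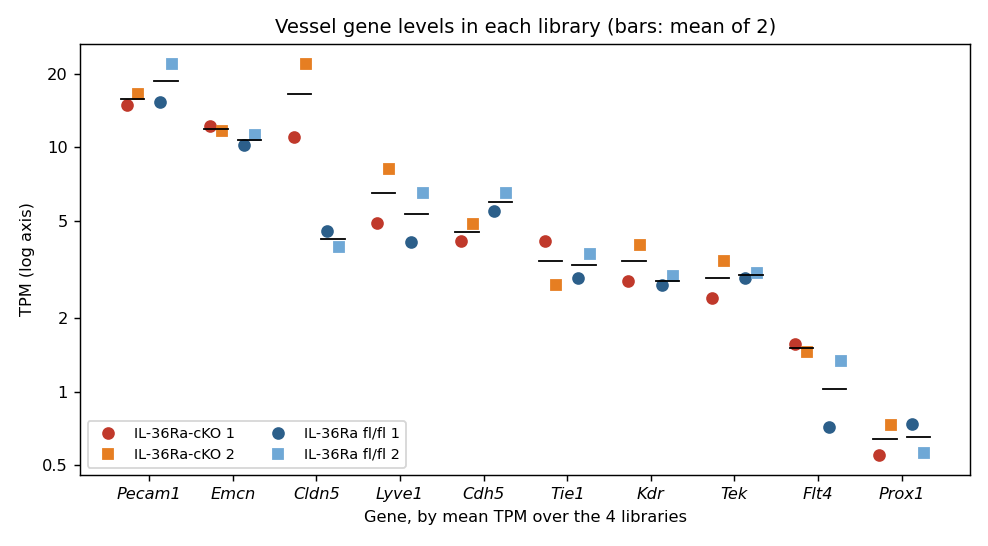
Level of the 10 vessel genes in TPM (log axis) in each library, with IL-36Ra-cKO left of IL-36Rafl/fl for each gene and a bar at the mean of 2 libraries. The Cldn5 points are at 10.97 and 21.98 TPM in the cKO libraries, above 4.53 and 3.92 TPM in the fl/fl libraries, whereas 6 of the other 9 genes overlap.

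Cldn5 had the widest difference of the 10. Claudin-5 is the main tight junction protein of endothelium and limits the passage of small molecules between cells. Its counts were 162 and 315 in the cKO libraries and 55 and 58 in the fl/fl libraries, which is 10.97 and 21.98 TPM against 4.53 and 3.92 TPM. Both cKO libraries were above both fl/fl libraries, and the cKO libraries differed from each other by 1.89-fold. On TMM-scaled CPM (counts divided by library size) the means were 15.9 ± 6.90 in the cKO and 3.56 ± 0.256 in the fl/fl libraries (SD, n = 2 libraries each). Log2 fold changes are given as cKO over fl/fl, and that of Cldn5 was 2.16 ± 0.38 (SE), a 4.47-fold difference with a 95% interval of 2.24 to 8.92. It did not pass the threshold of 0.05 over all genes with edgeR's quasi-likelihood test (unadjusted p = 2.80e-03, adjusted p = 0.0740).

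The Cldn5 call depended on the fit. It was called with DESeq2 (adjusted p = 2.35e-04), with no scaling factors (edgeR adjusted p = 0.0189) and without cKO replicate 1 (edgeR adjusted p = 0.0161), and in the other alternatives tried its adjusted p ran up to 0.288. The fold change was positive in all 15 alternatives. It was 1.63 on the log2 scale without cKO replicate 2, the library with high muscle transcripts, and 2.55 without cKO replicate 1. Muscle markers summed to 85.05 and 2394 TPM in the cKO libraries and 168 and 202 TPM in the fl/fl libraries, with no marker at 0, and their part in the Cldn5 values was not tested.

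Cldn5 was also set against other endothelial genes of the same library. In bulk tissue fewer cells of a type and less RNA per cell cannot be told apart, and this ratio does not separate them. Relative to the geometric mean CPM of Pecam1, Cdh5, Kdr, Tek, Tie1 and Emcn, Cldn5 stood at 0.749 and 1.36 in the cKO libraries and at 0.302 and 0.222 in the fl/fl libraries. That geometric mean itself was 14.7 and 15.3 CPM in the cKO libraries and 12.4 and 15.2 CPM in the fl/fl libraries. The reference genes therefore overlapped between the groups while the ratio did not. Cldn5 is the member with the widest difference and the reference varied little. The ratio thus largely repeats the Cldn5 values and is no separate result. As a ratio to Pecam1 alone, on TPM, Cldn5 was at 0.739 and 1.33 in the cKO libraries and 0.295 and 0.179 in the fl/fl libraries.

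The other junction and surface genes had smaller differences than Cldn5, and they did not pass either. Pecam1, an adhesion molecule at endothelial borders that platelets and leukocytes also carry, was at 14.85 and 16.54 TPM in the cKO libraries and 15.37 and 21.86 TPM in the fl/fl libraries. Its log2 fold change was -0.10 ± 0.23 (SE, edgeR adjusted p = 0.773), with a 95% interval of the fold of 0.614 to 1.41, and it turned to 0.20 without fl/fl replicate 2. The groups overlapped, and the fl/fl libraries lay further apart than the cKO libraries.

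Cdh5, the adherens junction cadherin of endothelium, was at 4.13 and 4.87 TPM in the cKO libraries and 5.49 and 6.48 TPM in the fl/fl libraries. On TPM both cKO values were below both fl/fl values, but on CPM the groups overlapped at 13.1 and 14.98 CPM in the cKO libraries against 14.94 and 18.4 CPM in the fl/fl libraries, and the log2 fold change was -0.25 ± 0.21 (SE, edgeR adjusted p = 0.438). The median tested gene had a log2 fold change of -0.16 on log2(TPM + 1) and of 0.0002 with TMM scaling. Emcn encodes endomucin, a sialomucin of capillary and venous endothelium that hinders leukocyte attachment. It was at 12.2 and 11.64 TPM in the cKO libraries and 10.17 and 11.25 TPM in the fl/fl libraries, with a log2 fold change of 0.36 ± 0.21 (SE, edgeR adjusted p = 0.284). Both cKO libraries were above both fl/fl libraries, and the 95% interval ran from 0.873- to 1.90-fold.

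The tyrosine kinase receptors gave no call. Kdr encodes VEGFR-2, the main signalling receptor for VEGF-A, and was at 2.84 and 3.99 TPM in the cKO libraries and 2.74 and 2.96 TPM in the fl/fl libraries. Its log2 fold change was 0.42 ± 0.24 (SE, edgeR adjusted p = 0.270), with a 95% interval of 0.868- to 2.07-fold, and 0.18 without cKO replicate 2. The groups were apart on CPM and overlapped on TPM. Tek, the angiopoietin receptor, was at 2.42 and 3.43 TPM in the cKO libraries and 2.93 and 3.07 TPM in the fl/fl libraries. Its fl/fl values lay inside the range of its cKO values, and its log2 fold change of 0.13 ± 0.25 (SE, edgeR adjusted p = 0.735) was negative on TPM and without cKO replicate 2. Tie1, an orphan receptor that modulates Tie2, was at 4.14 and 2.72 TPM in the cKO libraries and 2.91 and 3.67 TPM in the fl/fl libraries. The log2 fold change of Tie1 was 0.23 ± 0.32 (SE, edgeR adjusted p = 0.630), and it was -0.14 without cKO replicate 1, the library in which Tie1 was highest. Of the receptors, Kdr and Tek were higher in cKO replicate 2 than in cKO replicate 1, and Tie1 the other way round.

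None of the 3 lymphatic genes passed. Flt4, the receptor through which VEGF-C drives lymphatic growth, was at 1.56 and 1.45 TPM in the cKO libraries and 0.72 and 1.34 TPM in the fl/fl libraries. Both cKO libraries were above both fl/fl libraries, but fl/fl replicate 2 lay close to them, and the fl/fl libraries differed from each other by 1.95-fold on CPM. The log2 fold change was 0.70 ± 0.39 (SE, edgeR adjusted p = 0.264), 0.30 when fl/fl replicate 1 was left out and 1.25 without fl/fl replicate 2. Prox1, the transcription factor that sets lymphatic identity, was at 0.55 and 0.73 TPM in the cKO libraries and 0.74 and 0.56 TPM in the fl/fl libraries. Prox1 thus covered nearly the same range in both groups, with a log2 fold change of 0.12 ± 0.31 (SE, edgeR adjusted p = 0.797) that turned negative when either second replicate was left out. Its exons overlap an antisense gene, Prox1os, in the GENCODE annotation, and since the labels do not say whether strand was kept, reads of the 2 cannot be told apart.

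Lyve1 varied within both groups. It was at 4.90 and 8.13 TPM in the cKO libraries and 4.11 and 6.52 TPM in the fl/fl libraries, a range of 1.59-fold within the cKO and 1.66-fold within the fl/fl libraries on CPM. Its log2 fold change was 0.46 ± 0.37 (SE, edgeR adjusted p = 0.416), and it ran from 0.09 to 0.85 as each library was left out. Lyve1 is also carried by some tissue macrophages. The 11 macrophage markers checked were all above 0, with a sum of 118 and 152 TPM in the cKO libraries and 109 and 206 TPM in the fl/fl libraries. The lower library of each group was the same for Lyve1 and for the macrophage sum. That order was also seen in the fibroblast, red cell, muscle and vessel sums, and not in the adipocyte, hair follicle or keratinocyte sums. The part of macrophages in the Lyve1 values was not tested.

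Over the 10 genes, 0 passed the threshold in either direction with edgeR, and of all 14459 genes tested 4 passed, or 0.0277%, all of them higher in the cKO libraries. They were the Y-linked genes Ddx3y, Uty and Eif2s3y and the major urinary protein gene Mup22, named after their values were seen. At an unadjusted p under 0.05, 1 member (Cldn5) was higher and 0 lower, whereas 16.5% of all genes were higher and 15.6% lower, 32.1% in all. With DESeq2 1 of 10 members was called higher and 0 lower, beside 7.64% and 9.53% of all genes, 17.2% in all. With no scaling factors 1 member was called higher and 0 lower, beside 4.38% and 5.01% of all genes. Without cKO replicate 1 the counts were again 1 and 0, beside 2.07% and 3.9%. limma-voom and limma-trend on TPM called 0 members. The median log2 fold change of the members was 0.30, beside 0.0002 for all genes tested, and 8 of 10 were positive, beside 7 without cKO replicate 1, 6 without cKO replicate 2 and 6 on TPM, where Prox1 was below the level tested. On CPM the groups were apart for 4 of 10 members with the cKO libraries above (Cldn5, Emcn, Kdr and Flt4), beside 34.8% of all genes, and for 0 with the cKO libraries below, beside 32.9%. On TPM they were apart with the cKO libraries above for 3 (Cldn5, Emcn and Flt4), beside 25.2% of all genes, and below for 1 (Cdh5), beside 43.4%.

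**Figure D2:**
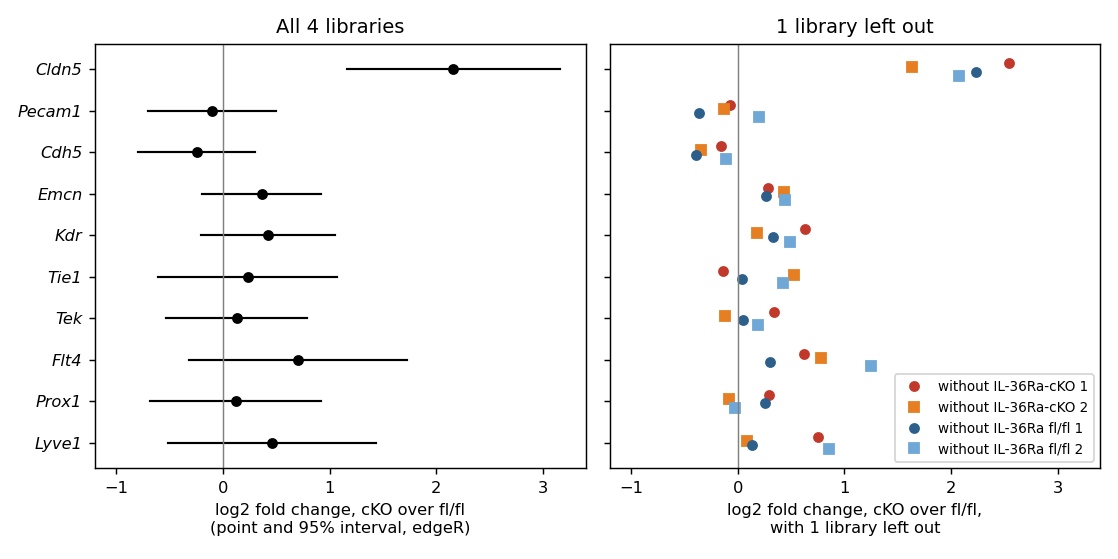
Log2 fold change of each vessel gene, cKO over fl/fl, with its 95% interval over all 4 libraries (left) and with 1 library left out (right). The interval of Cldn5, 1.16 to 3.16, lies above 0, those of the other 9 genes span 0, and Pecam1, Tek, Tie1 and Prox1 change sign when a library is left out.

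The sequence upstream of these genes was read to show how they differ at their start sites. RefSeq promoter windows of GRCm38.p6, with 250 bases before and 50 after the start, were at hand for 7 of the 10 genes. They were searched on both strands for AGGAAG, a core of ETS factor sites, AGATAA, bound by GATA factors, and ACAATG, bound by SOX factors, families known for their part in endothelial gene control. Among 32851 such windows of all genes, 35.4% held the ETS letters, 11.2% the GATA letters and 12.6% the SOX letters, and 49.2% held at least 1 of them. Of the 7 vessel genes 3 held at least 1, namely Emcn and Tie1 (ETS) and Tek (GATA), and a match is a description of letters, not of a binding site. The windows of these 3 and of Cldn5, the member with the widest difference, are given 5′ to 3′ on the gene's own strand, with matches in capitals. They are chr16:18776597-18776896 (plus strand) for Cldn5, chr3:137340828-137341127 (plus) for Emcn, chr4:118489800-118490099 (minus) for Tie1 and chr4:94739039-94739338 (plus) for Tek.
Cldn5: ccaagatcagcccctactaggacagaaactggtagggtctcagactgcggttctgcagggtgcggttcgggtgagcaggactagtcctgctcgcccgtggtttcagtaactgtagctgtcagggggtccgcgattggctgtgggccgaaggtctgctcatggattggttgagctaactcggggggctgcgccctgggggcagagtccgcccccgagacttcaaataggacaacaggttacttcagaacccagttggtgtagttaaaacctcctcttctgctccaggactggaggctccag
Emcn: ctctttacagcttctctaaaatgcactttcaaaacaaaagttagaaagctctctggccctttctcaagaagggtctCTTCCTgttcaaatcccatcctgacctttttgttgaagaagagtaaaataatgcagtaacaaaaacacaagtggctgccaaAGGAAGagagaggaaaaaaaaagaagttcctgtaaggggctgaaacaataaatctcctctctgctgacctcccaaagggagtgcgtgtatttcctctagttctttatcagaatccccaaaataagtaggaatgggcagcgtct
Tie1: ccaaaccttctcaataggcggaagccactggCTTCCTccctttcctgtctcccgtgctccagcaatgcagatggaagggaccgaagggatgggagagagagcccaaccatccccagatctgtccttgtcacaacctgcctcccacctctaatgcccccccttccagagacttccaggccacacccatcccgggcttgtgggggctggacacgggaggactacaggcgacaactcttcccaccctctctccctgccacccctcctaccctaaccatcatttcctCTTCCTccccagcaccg
Tek: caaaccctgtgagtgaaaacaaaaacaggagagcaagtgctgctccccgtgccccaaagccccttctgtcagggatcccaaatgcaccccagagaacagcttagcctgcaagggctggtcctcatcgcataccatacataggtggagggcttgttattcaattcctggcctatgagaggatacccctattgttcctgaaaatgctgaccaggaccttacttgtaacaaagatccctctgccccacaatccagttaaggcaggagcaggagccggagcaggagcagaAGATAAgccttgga
Emcn held 2 ETS matches, beginning at -174 and -93 bases from the start site, Tie1 held 2, at -219 and 34, and Tek held 1 GATA match, at 37, while the Cldn5 window held 0 of the 3 motifs, which says only that these letters are not in this window.

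Further vessel genes were read from 6 lists of endothelial, lymphatic, vessel-type, mural and junction genes, 101 genes tested in all. With edgeR 0 of them passed over all genes, 10 higher and 19 lower ones had an unadjusted p under 0.05, beside 16.5% and 15.6% of all genes, and the median log2 fold change was -0.10. With DESeq2 9 were called higher and 15 lower, beside 7.64% and 9.53% of all genes. The genes named for each list are the 4 with the smallest p, so their values are the extremes of the list and not its average. The plot of these 24 genes shows both directions within most lists.

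Other genes shared by all endothelium were split evenly by sign. Of 28 tested, 14 lay above and 14 below 0, and the median log2 fold change was -0.01. Clec14a, an endothelial lectin, had 35 and 33 counts in the cKO libraries and 109 and 78 in the fl/fl libraries, a log2 fold change of -1.38 ± 0.36 (SE, edgeR adjusted p = 0.0961). Ets1, a transcription factor of endothelium and lymphocytes, was at -0.54 ± 0.17, and Ptprb, the phosphatase that restrains Tie2, at -0.47 ± 0.24. Cd34, a sialomucin of capillaries that hair follicle stem cells also express, was at 0.58 ± 0.28. None of these 4 passed, and DESeq2 called 1 of them, Clec14a (adjusted p = 0.0401).

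Among ligands, receptors and co-receptors of the VEGF, angiopoietin and apelin families, 4 of 13 genes lay above 0 and 9 below, and the median log2 fold change was -0.31. The 4 above 0 were the ligand genes Vegfa, Vegfb, Vegfc and Vegfd, all but Vegfb named after their values were seen. The other ligand genes of the list lay below 0 and were also named after their values were seen. They were Angpt1 at -1.11 ± 0.64, Angpt2 at -0.78 ± 0.38 and Apln at -0.98 ± 0.43 (SE). Pgf at -0.08 ± 0.61 and Angpt4 at -0.10 ± 0.65 lay near 0. Vegfa, the main angiogenic ligand, was at 33.95 and 48.11 TPM in the cKO libraries and 33.50 and 33.35 TPM in the fl/fl libraries, with a log2 fold change of 0.44 ± 0.20 (SE, edgeR adjusted p = 0.197). The ligands of VEGFR-3 gave 1.02 ± 0.45 for Vegfc and 0.41 ± 0.32 for Vegfd. Neither passed, and the groups were apart for Vegfc and overlapped for Vegfd. Vegfb, a ligand of VEGFR-1, was at 12.56 and 14.76 TPM in the cKO libraries and 5.55 and 7.40 TPM in the fl/fl libraries (log2 fold change 1.296 ± 0.266 SE, edgeR adjusted p = 0.0799). The co-receptor Nrp1 was at -0.67 ± 0.19, the apelin receptor Aplnr at -1.21 ± 0.41 and Flt1, which encodes VEGFR-1 and was named after its values were seen, at -0.31 ± 0.19. Nrp2, the co-receptor for VEGF-C, had 540 and 106 counts in the cKO libraries and 1072 and 1450 in the fl/fl libraries (-1.85 ± 0.76 SE, edgeR adjusted p = 0.170). It was called without cKO replicate 1, at -3.49 (edgeR adjusted p = 8.52e-03), and with DESeq2 (adjusted p = 0.0332), and it was at -1.10 without cKO replicate 2. Hair follicle markers followed the same order of libraries, at 3176 and 13.2 TPM in the cKO and 7826 and 9749 TPM in the fl/fl libraries, and their part in the Nrp2 values was not tested.

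Among 15 further lymphatic genes tested, 7 had positive and 8 negative log2 fold changes. The median was -0.05, and the ends of the range were wide. Ccl21a encodes the chemokine with which lymphatic endothelium draws dendritic cells and T cells, and stood at 238.5 and 398 TPM in the cKO libraries and 86.6 and 129 TPM in the fl/fl libraries. Its log2 fold change was 1.80 ± 0.33 (SE, edgeR adjusted p = 0.0740), but near-identical copies of this gene exist in the mouse, so the value may be of several copies. Mmrn1, a multimerin of lymphatic endothelium and platelets, had 455 and 705 counts in the cKO libraries and 249 and 297 in the fl/fl libraries (1.18 ± 0.25 SE, edgeR adjusted p = 0.0800). Reln, a secreted glycoprotein of lymphatic endothelium, was named after its values were seen and had 185 and 310 counts in the cKO libraries and 93 and 109 in the fl/fl libraries (1.38 ± 0.31 SE, edgeR adjusted p = 0.0823). All 3 were higher in cKO replicate 2 than in cKO replicate 1, as Cldn5 was. Of the lymphatic members, Lyve1 and Prox1 had this order too and Flt4 did not. The cKO values of Ccl21a, Mmrn1 and Reln were above their fl/fl values. That held for 34.8% of all genes on CPM and 25.2% on TPM. Lyve1 and Prox1 overlapped between the groups.

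Lower values stood in the same list. Adamts3, the protease that activates VEGF-C, had 8 and 4 counts in the cKO libraries and 48 and 69 in the fl/fl libraries (-3.15 ± 0.47 SE, edgeR adjusted p = 0.0678). Stab1, a scavenger receptor of macrophages and of lymphatic and sinusoidal endothelium, had 327 and 288 counts in the cKO libraries and 529 and 806 in the fl/fl libraries (-1.01 ± 0.21 SE, edgeR adjusted p = 0.0799). Further lower genes, named after their values were seen as Reln was, were Itga9 at -0.85 ± 0.36 and Pdpn at -0.64 ± 0.48. Ccbe1 at -0.545 ± 0.56 and Nr2f2 at -0.38 ± 0.46 were lower too. Above 0, beside Ccl21a, Mmrn1 and Reln, lay Gja4, Foxc2, Gata2 and Piezo1, at 0.15 to 0.45. DESeq2 called Ccl21a (adjusted p = 5.04e-05) and Mmrn1 (7.45e-03) higher and Adamts3 (4.72e-04) and Stab1 (4.15e-03) lower.

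**Figure D3:**
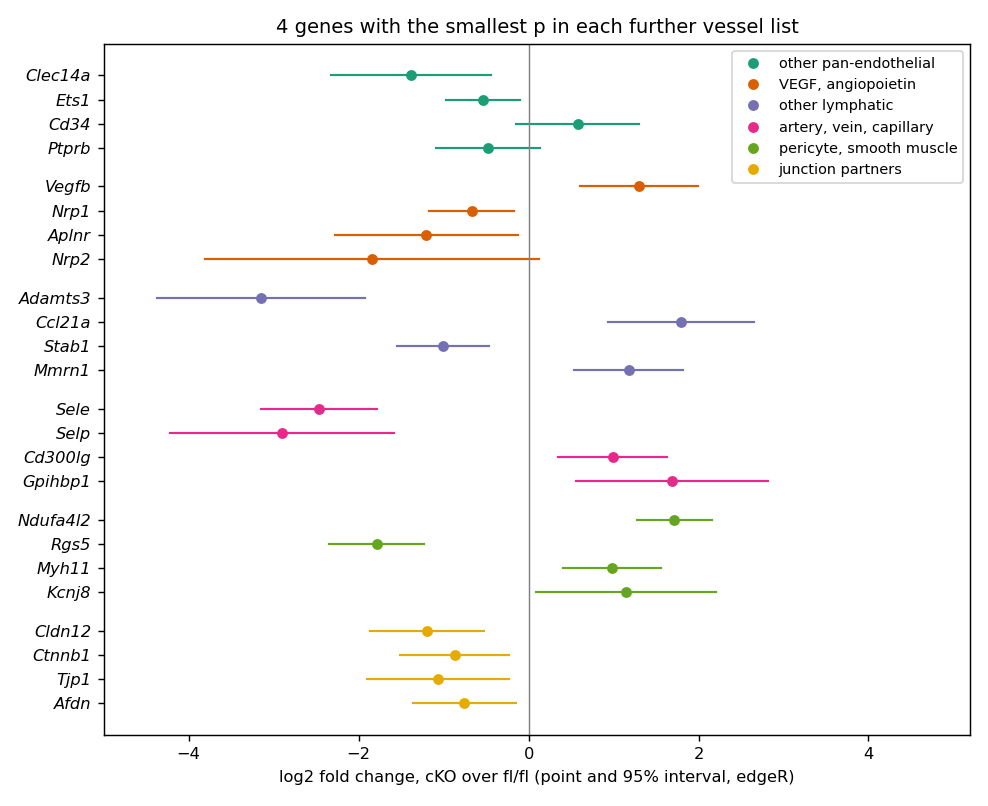
Log2 fold change, cKO over fl/fl, with its 95% interval, of the 4 genes with the smallest p in each of 6 further vessel lists. E-selectin and P-selectin (Sele and Selp) lie at -2.47 and -2.90 and the pericyte gene Rgs5 at -1.79, while Ndufa4l2 and Ccl21a lie at 1.72 and 1.80.

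Genes that tell arteries, veins and capillaries apart were above 0 for 9 and below 0 for 10 of 19, and their median log2 fold change was -0.38. E-selectin, encoded by Sele, is put on inflamed venules to slow passing leukocytes, and had 40 and 34 counts in the cKO libraries and 219 and 218 in the fl/fl libraries. Its log2 fold change was -2.47 ± 0.26 (SE, edgeR adjusted p = 0.0656), a 0.181-fold level with a 95% interval of 0.112 to 0.290. P-selectin, encoded by Selp and shared with platelets, had 41 and 19 counts in the cKO libraries and 166 and 326 in the fl/fl libraries (-2.90 ± 0.50 SE, edgeR adjusted p = 0.0733). Both selectins were called lower by DESeq2 (adjusted p = 2.25e-08 for Sele and 4.34e-06 for Selp), with no scaling factors and without cKO replicate 1. Named after their values were seen, the adhesion molecules Vcam1 and Icam1 differed from each other, at -1.29 ± 0.40 and 0.16 ± 0.28 on the log2 scale.

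Capillary genes lay on both sides of 0. Gpihbp1, which holds lipoprotein lipase in capillaries of fat and muscle, was at 20.31 and 25.43 TPM in the cKO libraries and 5.06 and 11.09 TPM in the fl/fl libraries (1.69 ± 0.43 SE, edgeR adjusted p = 0.0944). Cd300lg, a capillary glycoprotein, was at 6.54 and 7.64 TPM in the cKO libraries and 4.97 and 3.69 TPM in the fl/fl libraries (0.99 ± 0.25 SE, edgeR adjusted p = 0.0926). Named after their values were seen, the fatty acid transporter Cd36 was at -0.39 ± 0.16 and the carbonic anhydrase Car4 at -0.38 ± 0.57. Rgcc at 0.76 ± 0.32 and Fabp4 at 0.34 ± 0.37, also named after their values were seen, lay above 0. Cd36 is also rich in adipocytes and macrophages. Adipocyte markers summed to 1034 and 994 TPM in the cKO libraries and 233 and 765 TPM in the fl/fl libraries, with no marker at 0, and their part in the Gpihbp1 values was not tested.

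Genes of the cells that wrap vessels were split by sign as well. Of 14 pericyte and vascular smooth muscle genes, 8 lay above and 6 below 0, and the median log2 fold change was 0.21. Rgs5, a regulator of G protein signalling that marks pericytes, had 350 and 290 counts in the cKO libraries and 1232 and 1109 in the fl/fl libraries (-1.79 ± 0.21 SE, edgeR adjusted p = 0.0656). Ndufa4l2, a mitochondrial protein rich in pericytes, had 2512 and 2869 counts in the cKO libraries and 816 and 931 in the fl/fl libraries (1.72 ± 0.17 SE, edgeR adjusted p = 0.0656). These 2 genes thus had log2 fold changes of opposite sign, and both passed with DESeq2 (adjusted p = 1.04e-07 for Rgs5 and 8.17e-12 for Ndufa4l2). Their levels were unlike. Ndufa4l2 was at 276 and 333 TPM in the cKO libraries and 113 and 106 TPM in the fl/fl libraries. Rgs5 was at 7.27 and 6.04 TPM in the cKO libraries and 30.12 and 22.08 TPM in the fl/fl libraries. The part of other cell types in these values was not tested. Myh11, the smooth muscle myosin of vessels and hair muscles, was at 0.98 ± 0.22 and Kcnj8, a potassium channel subunit of pericytes, at 1.15 ± 0.41. Of the same list and named after their values were seen, Acta2 was at -0.62 ± 0.33 and Tagln at -0.545 ± 0.25. Cnn1 was at 0.95 ± 0.40 and Des at 2.12 ± 0.80. Des had 198 and 991 counts in the cKO libraries and 97 and 197 in the fl/fl libraries.

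Of 12 partners of the endothelial junction, 11 had negative log2 fold changes and the median was -0.41, with 0 called by edgeR and 6 lower at an unadjusted p under 0.05, beside 15.6% of all genes. The claudin gene Cldn12 was at -1.19 ± 0.26 (SE, edgeR adjusted p = 0.0819), the tight junction scaffold Tjp1 (ZO-1) at -1.07 ± 0.32, beta-catenin (Ctnnb1) at -0.87 ± 0.25 and afadin (Afdn) at -0.76 ± 0.23. Keratinocytes carry most of these proteins too, and the part of keratinocytes in these values was not tested. Levels in the list varied, with Ctnnb1 at 202 and 179 TPM in the cKO libraries and 453 and 333 TPM in the fl/fl libraries, and Cldn12 at 9.25 and 12.15 TPM in the cKO libraries and 33.98 and 21.0 TPM in the fl/fl libraries.

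**Figure D4:**
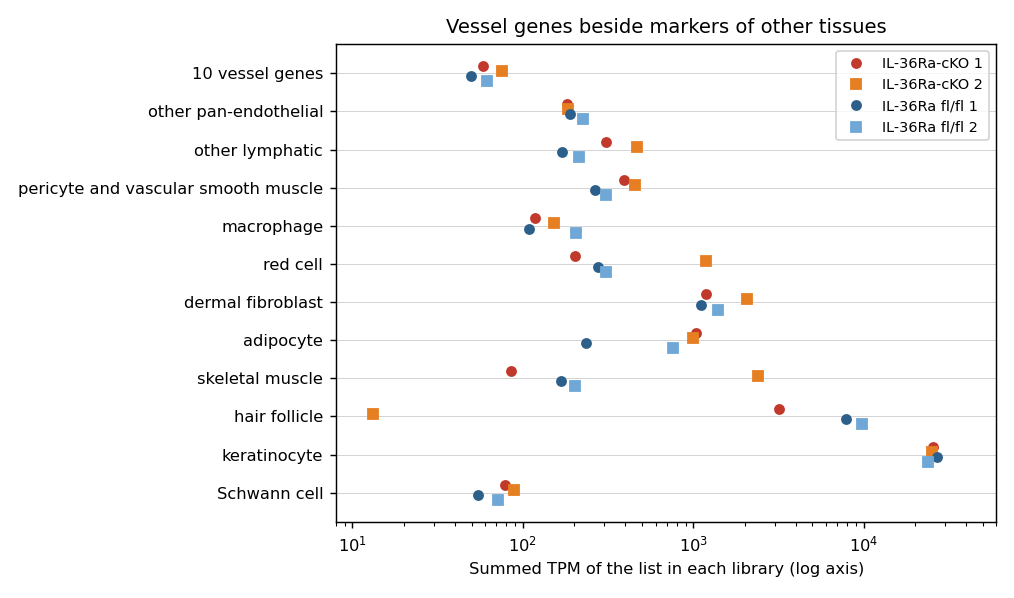
Summed TPM (log axis) of the 10 vessel genes and of marker lists of other cell types in each library. The vessel sum ran from 49.7 to 75.5 TPM over the 4 libraries, while the skeletal muscle sum ran from 85.05 to 2394 TPM and the hair follicle sum from 13.2 to 9749 TPM.

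Marker sums of some surrounding tissues varied widely between libraries, as the plot of summed marker levels shows. Dermal fibroblast genes summed to 1189 and 2054 TPM in the cKO libraries and 1102 and 1404 TPM in the fl/fl libraries. Red cell genes summed to 203 and 1190 TPM in the cKO libraries and 275 and 309 TPM in the fl/fl libraries. cKO replicate 2 was the highest library for red cell, muscle and fibroblast genes and also for the sum of the 10 vessel genes. That vessel sum included Cldn5 at 21.98 TPM in cKO replicate 2, and its order did not hold for each gene. Lyve1, Kdr and Tek were also highest in cKO replicate 2. Pecam1 and Cdh5 were highest in fl/fl replicate 2, at 21.86 and 6.48 TPM. Emcn, Tie1 and Flt4 were highest in cKO replicate 1, and Prox1 in fl/fl replicate 1. The 28 other pan-endothelial genes were highest in fl/fl replicate 2, at 181 and 185 TPM in the cKO libraries and 190 and 226 TPM in the fl/fl libraries. fl/fl replicate 1 was the lowest for fibroblast and adipocyte genes and for the sum of the 10 vessel genes. The part of these tissues in the vessel gene values was not tested.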

How the data were processed

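RNA of 4 mouse epidermis libraries, 2 per group, was sequenced, with poly(A) selection per the labels' protocols. The tools named in the submitters' processing notes are RSEM 1.3.1, Bowtie2 2.3.4.3 and DESeq2 1.4.5, with GRCm39 as the build and no annotation. The authors deposited estimated counts that were not normalized (11.05% to 13.02% of values not whole) and TPM values. FPKM values and normalized counts, a signal scaled per library, were also deposited and not used, nor were 8 columns of group means.

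Estimated counts were rounded and tested with edgeR 4.0.16 in R 4.3.3 (quasi-likelihood F test), scaled by TMM and filtered by default, with group as the one term. Of 17958 genes 14459 were tested. P-values were adjusted by Benjamini-Hochberg over them, threshold 0.05. There were 2 residual degrees of freedom, with a biological coefficient of variation of 0.269. The main fit and some alternatives were tested on simulated counts with known changes. Every simulated gene had the same spread and no library stood apart as cKO replicate 2 did. The simulation therefore does not show how the fits perform on these data. Alternatives were DESeq2 1.42.0, limma 3.58.1 (voom, and trend on log2(TPM + 1) and log2(TPM + 0.1) with at least 1 TPM in 2 libraries), other scaling and filters, a replicate block and each library left out.

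The 10 members and all lists were chosen with earlier results of these data known. From each further vessel list the 4 tested genes with the smallest p were named. Promoter windows are RefSeq's, of the older build GRCm38.p6.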

Additional observations from a re-analysis of the deposited data

How the results depend on the processing

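With edgeR, 4 genes were higher and 0 lower over all genes. DESeq2 gave 1130 higher and 1410 lower, no scaling factors 634 and 725, and log2(TPM + 1) 1 lower. Leaving out 1 library gave 0 to 308 higher and 0 to 579 lower, all of them without cKO replicate 1. Among the 10 members, 1 (Cldn5) was called higher with DESeq2 and with no scaling factors, and 0 to 1 with a library left out. Among the further vessel genes, 101 of them tested with edgeR, DESeq2 called 9 higher and 15 lower, beside 7.64% and 9.53% of all genes. No scaling factors gave 4 and 5, near the 4.38% and 5.01% of all genes. For each of these the cause was not tested. The median of the members was 0.14 on log2(TPM + 1), beside -0.16 for all genes tested. With a library left out it was 0.13 to 0.43, beside -0.023 to 0.043 for all genes tested. Tek was at -0.039 on log2(TPM + 1) and -0.055 on log2(TPM + 0.1), where the median of all genes tested was -0.16 and -0.175. With a library left out Pecam1 ran from -0.36 to 0.20, Tek from -0.12 to 0.34, Tie1 from -0.14 to 0.52 and Prox1 from -0.078 to 0.29 (-0.030 without fl/fl replicate 2). Of 506 values of 34 named genes over 15 alternatives, 462 kept their direction and side of the threshold, 37 newly passed it and 7 changed sign.

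The replicate numbers are shared by the groups but nothing in the labels pairs the libraries. The deviations of same-numbered libraries were weakly negatively correlated over genes (r = -0.13), which pairs nothing. With the replicate number as a block, 4 genes were called and 0 members, and the adjusted p of Cldn5 was 0.128. With the numbers crossed, an alternative added after the data were seen, 0 genes were called higher and 0 members.

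With 2 libraries per group, the 95% intervals of the members other than Cldn5 reach from 0.576- to 3.31-fold over the members, and a gene whose interval spans 1-fold may differ within its own interval.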
